A study of Homo sapiens with 7 samples.

Results

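The RNA of 8 genes that write, read out and remove DNA methylation was followed in K562, a human chronic myelogenous leukemia line whose histone demethylase LSD1, encoded by KDM1A, is fused to GFP. The genes were chosen by name from the 57773 genes of the count table: DNMT1, DNMT3A, DNMT3B, UHRF1, UHRF2, TET1, TET2 and TET3. The rule itself uses no measured value, but the choice was made with earlier results of these data known. All 8 were found and all 8 passed the filter on low counts. Parental cells carry wild-type LSD1-GFP on every allele and gave 3 libraries. Edited lines 1 and 2 each carry Y391K-LSD1-GFP on 2 alleles and wild-type LSD1-GFP on 1 allele, and gave 2 libraries each. All groups used here thus carry the GFP tag, and per the study design the Y391K enzyme has gained the ability to act despite acetylation of lysine 14 of histone H3. Neither separate cultures behind the libraries nor a single clone behind each line is stated in the labels, so p-values measure the spread between these libraries, which may be technical.

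DNA methylation in mammals sits mostly on the cytosine of CpG dinucleotides and is associated with stable gene silencing. DNMT3A and DNMT3B place new methyl groups, while DNMT1, brought to hemimethylated DNA by UHRF1, copies the pattern onto the new strand after replication. The TET dioxygenases oxidise 5-methylcytosine, and base excision repair or further rounds of replication then restore plain cytosine. LSD1 removes methyl groups from histone H3 and has been reported to demethylate and stabilise DNMT1 protein in mouse embryonic stem cells, which RNA counts cannot show.

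Total counts ran from 35841302 to 72577827 per library, and 3 counts corresponded to 0.0413 to 0.0837 CPM (counts scaled to library size after TMM normalisation). Members had between 634 and 35236 counts in a library. KDM1A stood between 237.4 and 348.5 CPM in the 7 libraries, with a log2 fold change of 0.01 (SE 0.16, adjusted p = 0.989 in edgeR) between edited and parental cells, and its level does not check which allele is present. All 8 markers of K562 cells were detected, led by the fetal globin HBG2 and the transferrin receptor TFRC at means of 1457 and 1431 CPM in parental cells. Of the 8, the transcription factor gene LYL1 fell in line 2 (log2 fold change -0.73, SE 0.15, adjusted p = 0.0256) and no other passed in edgeR. HBG2 and its near-identical copy HBG1, between which reads are hard to assign, both stood at -1.46 in line 2 against line 1 (adjusted p = 0.0961 and 0.0852 in edgeR, called by DESeq2). DESeq2 also called both globin genes in line 1, and whether these markers play a part in the values of DNMT1 and DNMT3A was not tested. Among markers of other cell types, the epithelial pair EPCAM and CDH1 summed to 69.1 to 125 CPM per library and the 3 T cell markers to 2.21 to 7.51 CPM. These sums were nearly all EPCAM and CD3D, as CDH1, CD3E and CD2 were at most 0.153, 0.289 and 0.102 CPM. The sums for B cell, monocyte, stromal and hepatocyte markers were at most 1.38, 0.742, 3.27 and 0.0825 CPM.

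In edited line 2 the RNA of DNMT1, the maintenance methyltransferase, fell to 0.648 times and that of DNMT3A, a de novo methyltransferase, to 0.476 times the parental level. Neither fell in line 1, and both were lower in line 2 than in line 1 when the lines were compared directly. The other 6 members passed the threshold in none of the 4 comparisons (quasi-likelihood test of edgeR, p-values adjusted by Benjamini-Hochberg over all genes, threshold 0.05). The count of members called was 2 of 8 in line 2, where 5.82% of all 18160 tested genes were called and 4.48% were called lower. Between line 2 and line 1 it was again 2 of 8, against 6.54% of all genes and 4.21% called lower. With both lines joined as edited cells, 0 of 8 members passed, against 0.182% of all genes. 1 member, TET2, had an unadjusted p under 0.05 there. In line 1 it was 0 of 8, against 1.75%, again with TET2 alone under an unadjusted 0.05. DESeq2's Wald test called the same counts of members in all 4 comparisons, and limma on log2(FPKM + 1) called 0 members in each. Over all genes DESeq2 called 464 in edited cells, 907 in line 1, 2032 in line 2 and 1900 between the lines. Counts at an unadjusted p under 0.05, here and in the lists below, are given without the share over all genes. No excess is read from them.

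**Figure D1:**
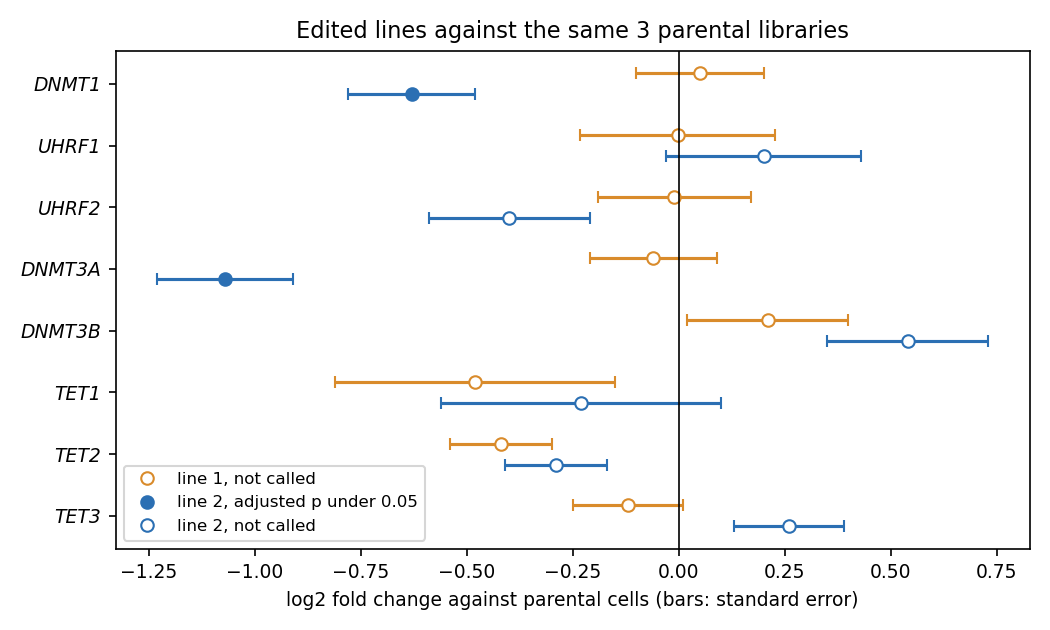
Log2 fold change of each gene in edited line 1 (orange) and edited line 2 (blue) against the same 3 parental libraries; bars are 1 standard error and filled points passed an adjusted p of 0.05. DNMT1 (-0.63) and DNMT3A (-1.07) in line 2 are the filled points.

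The median log2 fold change of the 8 members was -0.22 for edited against parental cells, -0.04 in line 1 and -0.26 in line 2, where the medians of all tested genes were -0.0018, -0.01 and -0.01. In line 2, 5 of 8 values were negative and 3 positive. The line comparisons share the parental libraries, so their values are given side by side only. Ranges of line 2 and parental libraries did not overlap for 6 of 8 members, which 39.4% of all genes also showed. Between line 2 and line 1 they did not overlap for 6 of 8, against 51.7% of all genes. For edited against parental cells 1 of 8 did not overlap, against 13.0% of all genes, and in line 1 it was likewise 1 of 8, against 31.5%. In the authors' deposited table for edited against parental cells, log2 fold changes of the members ran from -0.47 for DNMT3A to 0.40 for DNMT3B, and the smallest adjusted p was 0.216, for TET2.

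**Figure D2:**
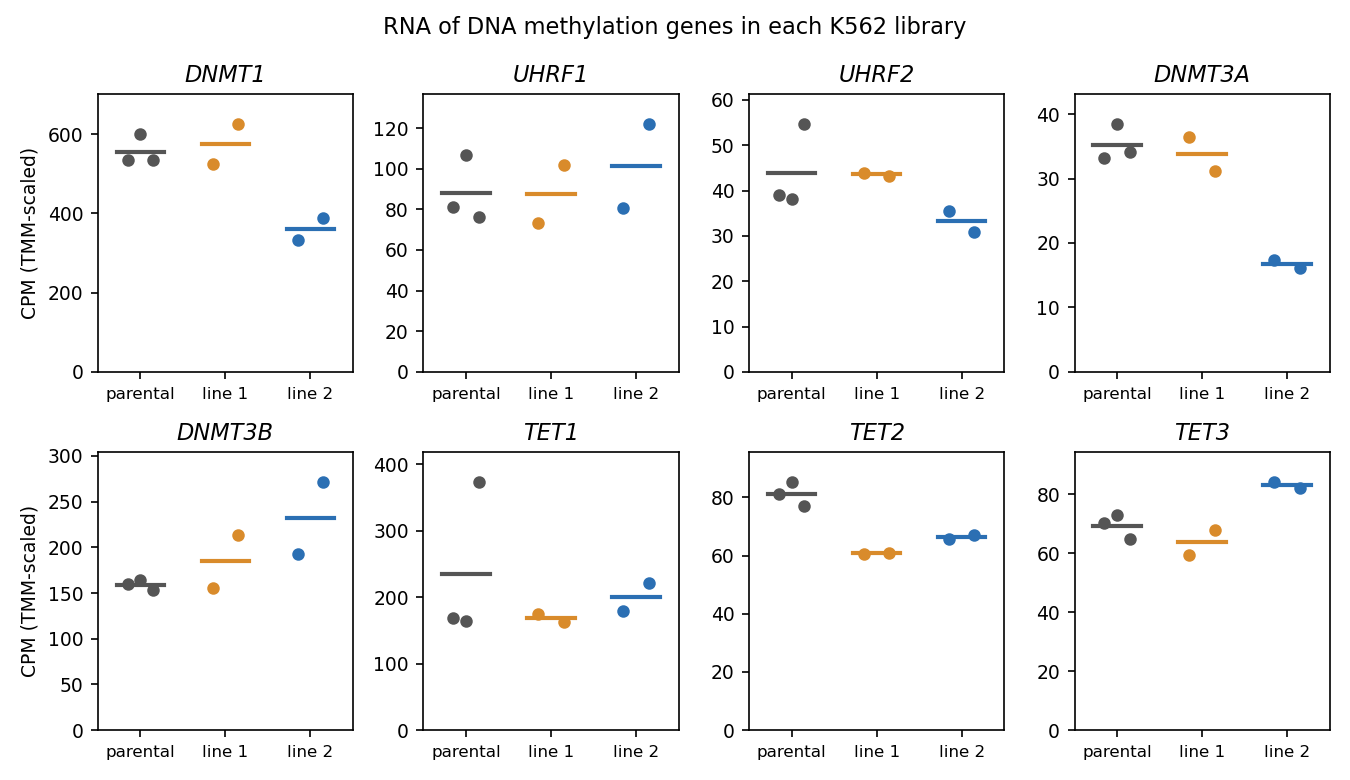
CPM of each gene in each of the 7 libraries, with 1 point per library and a line at the group mean; each panel has its own axis from 0. Line 2 lies below every other library for DNMT1, DNMT3A and UHRF2, and all 4 edited libraries lie below the parental ones for TET2.

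DNMT1 (ENSG00000130816, chr19:10133345-10231286 on GRCh38 in GENCODE release 29, minus strand) was the most abundant member on both length-corrected scales used here. Its level was 114 ± 5.61 FPKM (SD, n = 3) in parental cells, 113 ± 11.4 FPKM (SD, n = 2) in line 1 and 72.1 ± 7.67 FPKM (SD, n = 2) in line 2. On the CPM scale, parental libraries stood at 534.6, 600.0 and 534.2 CPM, line 1 at 525.6 and 626.4 CPM, and line 2 at 332.3 and 388.5 CPM. Both libraries of line 2 were below all 5 others, while line 1 spanned the parental range. The log2 fold change was -0.63 (SE 0.15, adjusted p = 0.0462) in line 2 and 0.05 (SE 0.15, adjusted p = 0.929) in line 1. The difference between line 2 and line 1 was -0.68 (SE 0.16, adjusted p = 0.0435). These calls lay close to the threshold: leaving out parental 1, parental 2 or any single edited library raised the adjusted p in line 2 to between 0.0683 and 0.192, at log2 fold changes of -0.75 to -0.52, and that against line 1 to between 0.0657 and 0.283. With DESeq2's size factors the adjusted p was 0.0514, and on FPKM it was 0.0903 to 0.119. In bulk RNA, fewer cells with a transcript and less RNA per cell cannot be told apart. The annotated exons of DNMT1 overlap S1PR2 on the same strand, a receptor gene with 33 to 91 counts in a library, and reads from the shared stretch could go to either gene or to neither.

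The promoters of the 2 genes that fell in line 2 are shown, because CpG-rich promoters are where methylation is best known to act. Each window runs from 250 bases before to 50 bases after a transcription start in RefSeq on GRCh38.p14, is written 5′ to 3′ on the gene's strand, and has each CpG in capitals.
DNMT1, chr19:10194904-10195203, minus strand: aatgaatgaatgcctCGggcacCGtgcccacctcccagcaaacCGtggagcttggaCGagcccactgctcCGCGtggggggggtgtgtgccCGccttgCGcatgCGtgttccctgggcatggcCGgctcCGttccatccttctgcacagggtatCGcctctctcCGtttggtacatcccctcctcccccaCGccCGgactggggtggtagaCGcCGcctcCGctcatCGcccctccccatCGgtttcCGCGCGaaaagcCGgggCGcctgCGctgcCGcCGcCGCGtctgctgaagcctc
DNMT3A first start, chr2:25342541-25342840, minus strand: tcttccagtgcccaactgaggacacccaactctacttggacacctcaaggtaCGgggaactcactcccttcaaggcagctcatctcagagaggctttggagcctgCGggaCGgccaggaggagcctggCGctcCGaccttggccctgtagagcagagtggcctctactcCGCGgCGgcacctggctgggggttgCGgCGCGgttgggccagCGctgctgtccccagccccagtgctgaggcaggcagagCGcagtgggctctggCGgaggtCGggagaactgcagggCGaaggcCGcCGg
DNMT3A internal start, chr2:25252266-25252565, minus strand: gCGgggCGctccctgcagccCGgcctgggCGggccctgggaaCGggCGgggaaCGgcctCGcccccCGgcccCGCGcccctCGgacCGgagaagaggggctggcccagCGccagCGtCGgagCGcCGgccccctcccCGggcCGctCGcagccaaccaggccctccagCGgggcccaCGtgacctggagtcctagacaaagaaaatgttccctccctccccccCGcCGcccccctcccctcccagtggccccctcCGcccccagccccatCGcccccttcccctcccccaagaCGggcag
The DNMT1 window holds 30 CpG, a number that 22.4% of all 35116 such windows reach. The table gives 6 starts for DNMT3A, with 18 to 46 CpG, and the windows printed are the most upstream of its first cluster of starts (18 CpG, reached by 44.5% of windows) and of its internal cluster (28 CpG, reached by 26.2%). The median over all windows was 14. The DNMT1 window lies inside the gene's GENCODE span, which begins further upstream. The 1 window for DNMT3B likewise lies downstream of that gene's GENCODE start and is not shown. CG was counted on 1 strand, which serves both as the motif is its own reverse complement, and no methylation was measured in these cells here.

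UHRF1 (ENSG00000034063, chr19:4903080-4962154 by its symbol, plus strand), which recruits DNMT1 to newly replicated DNA, stood at 81.1, 106.7 and 75.99 CPM in parental libraries, 73.5 and 102.0 CPM in line 1, and 80.57 and 122.1 CPM in line 2. The 3 groups overlapped. Its log2 fold change was -0.0028 (SE 0.23) in line 1 and 0.20 (SE 0.23, adjusted p = 0.666) in line 2, with an interval of 2 standard errors in line 2 from -0.26 to 0.66. The ratio of DNMT1 to UHRF1 CPM, which compares libraries and not the levels of the genes, was 6.59, 5.62 and 7.03 in parental libraries, 7.15 and 6.14 in line 1, and 4.12 and 3.18 in line 2. Those of line 2 were the lowest of the 7 ratios. UHRF2 (ENSG00000147854, chr9:6413151-6507054, plus strand), a paralogue that also binds modified cytosine, stood at 38.98, 38.13 and 54.75 CPM in parental libraries, 43.86 and 43.32 CPM in line 1, and 35.46 and 30.95 CPM in line 2. Both libraries of line 2 were below the others, but the log2 fold change of -0.40 (SE 0.19) had an adjusted p of 0.253. On FPKM it was between -0.12 and -0.10. It also depended on parental 3, the highest library, without which it was -0.20. For edited against parental cells the value was -0.20, and 0.01 without parental 3.

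DNMT3A (ENSG00000119772, chr2:25227855-25342590, minus strand) showed the largest change among the members. Its counts corresponded to 33.12, 38.49 and 34.04 CPM in parental libraries, 36.37 and 31.23 CPM in line 1, and 17.33 and 16.19 CPM in line 2. The 2 libraries of line 2 lay at about the same level, below all 5 others, and of line 1 replicate 1 lay within the parental range and replicate 2 just below it. The log2 fold change was -1.07 (SE 0.16, adjusted p = 0.00566) in line 2, -0.06 (SE 0.15, adjusted p = 0.914) in line 1 and -1.01 (SE 0.17, adjusted p = 0.00998) between the lines. On the authors' FPKM values, 5.33 ± 0.699 (SD, n = 3) in parental cells and 3.00 ± 0.699 (SD, n = 2) in line 2, the log2 fold change was -0.67 on the log2(FPKM + 1) scale and missed the threshold in limma (adjusted p = 0.148). The call in line 2 was also lost without line 2 replicate 2 (adjusted p = 0.0758), and that against line 1 without line 1 replicate 1, line 2 replicate 1 or line 2 replicate 2 (adjusted p = 0.0967, 0.0604 and 0.0827). For edited against parental cells the value was -0.48 (SE 0.29, adjusted p = 0.539), which became -0.57 (SE 0.13, adjusted p = 0.0493) where the lines were fitted as separate groups. The latter fit takes the mean of the 2 lines, and the difference between the lines does not count as error in it.

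DNMT3B (ENSG00000088305, chr20:32762385-32809356, plus strand), the other de novo methyltransferase, passed in no comparison. It stood at 160.2, 164.3 and 153.1 CPM in parental libraries, 155.3 and 213.7 CPM in line 1, and 193.1 and 271.4 CPM in line 2. Both libraries of line 2 were above every parental library, and the 2 libraries of each line differed by more than the parental ones did. The log2 fold change was 0.54 (SE 0.19, adjusted p = 0.132) in line 2, 0.21 (SE 0.19, adjusted p = 0.695) in line 1 and 0.39 (SE 0.18, adjusted p = 0.438) for edited against parental cells. Without the filter on low counts the adjusted p in line 2 was 0.0259. The ratio of DNMT3B to DNMT3A CPM was 4.84, 4.27 and 4.50 in parental libraries, 4.27 and 6.85 in line 1, and 11.1 and 16.8 in line 2. By the authors' FPKM, DNMT3A made up 33.0%, 39.2% and 39.4% of the sum of both genes in parental libraries. It made up 39.1% and 28.8% in line 1, and 18.4% and 16.5% in line 2. This share depends on the scale. By CPM per kilobase of the longest protein-coding transcript, parental means were 3.71 for DNMT3A and 36.7 for DNMT3B. The means were 3.56 and 42.6 in line 1, and 1.76 and 53.6 in line 2. Neither the ratio nor the share was tested, since both combine genes whose values were already known to differ.

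**Figure D3:**
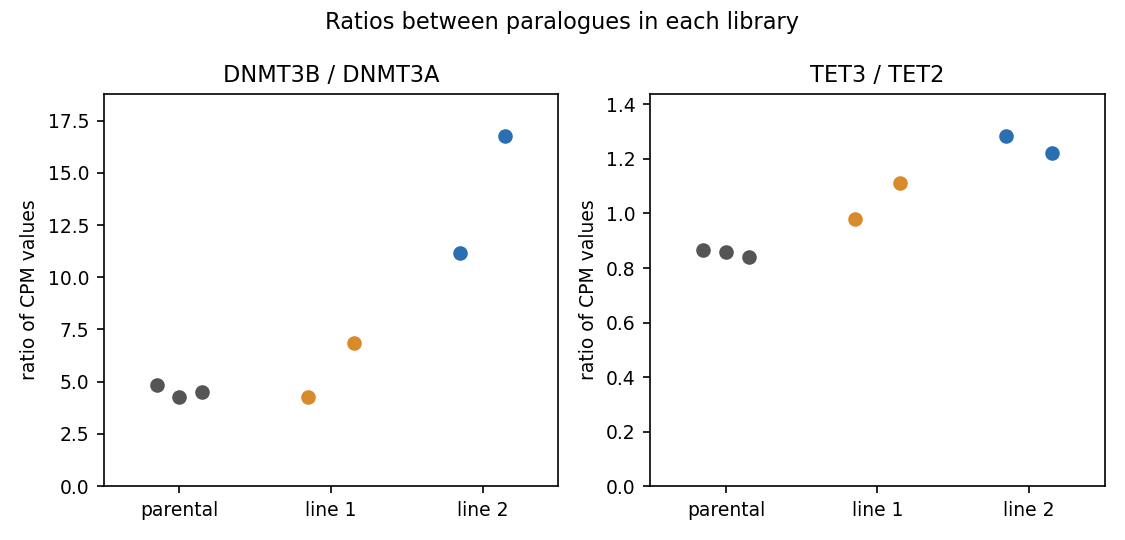
Ratio of CPM of DNMT3B to DNMT3A (left) and of TET3 to TET2 (right) in each of the 7 libraries, 1 point per library, axes from 0. The ratio of DNMT3B to DNMT3A is 4.27 to 4.84 in parental libraries and 11.1 and 16.8 in line 2, and that of TET3 to TET2 is above all parental libraries in both lines.

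TET2 (ENSG00000168769, chr4:105145875-105279816, plus strand), the dioxygenase most often mutated in myeloid neoplasms, was the only member whose 4 edited libraries all lay on one side of the 3 parental ones. Parental libraries stood at 81.29, 85.24 and 77.11 CPM, line 1 at 60.6 and 60.97 CPM, and line 2 at 65.52 and 67.11 CPM. The log2 fold change was -0.35 (SE 0.10) for edited against parental cells, with an unadjusted p of 0.0081 and an adjusted p of 0.274, and it did not pass in edgeR. It was -0.42 (SE 0.12, adjusted p = 0.164) in line 1 and -0.29 (SE 0.12, adjusted p = 0.208) in line 2. The direction held in all 16 alternative fits, with values from -0.39 to -0.26 and adjusted p-values from 0.103 to 0.672.

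TET3 (ENSG00000187605, chr2:73986404-74108176, plus strand), a TET enzyme without which the paternal genome is not fully oxidised in the mouse zygote, stood at 70.33, 73.08 and 64.72 CPM in parental libraries, 59.44 and 67.84 CPM in line 1, and 84.12 and 82.05 CPM in line 2. Line 2 was above the other 5 libraries. The log2 fold change was 0.26 (SE 0.13, adjusted p = 0.286) in line 2, -0.12 (SE 0.13, adjusted p = 0.753) in line 1 and 0.38 (SE 0.14, adjusted p = 0.180) between the lines. The ratio of TET3 to TET2 CPM was 0.865, 0.857 and 0.839 in parental libraries, 0.981 and 1.11 in line 1, and 1.28 and 1.22 in line 2.

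TET1 (ENSG00000138336, chr10:68560656-68694482, plus strand), the family member known from embryonic stem cells, stood at 169.0, 163.9 and 373.4 CPM in parental libraries, 175.5 and 163.3 CPM in line 1, and 179.7 and 221.6 CPM in line 2. Parental 3 stood above the other 6 libraries. The log2 fold changes of -0.48 (SE 0.33) in line 1, -0.23 (SE 0.33) in line 2 and -0.35 (SE 0.28) for edited against parental cells rested on that library: without parental 3 they were 0.05, 0.28 and 0.17, and none passed the threshold either way.

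The order of the levels in parental cells depended on how length was taken into account. By the authors' FPKM, DNMT1 was followed by TET1 at 10.4, DNMT3B at 9.01, UHRF1 at 5.53, TET2 at 5.50, DNMT3A at 5.33, UHRF2 at 4.57 and TET3 at 4.02 FPKM. TET1 and DNMT3B overlapped over the 3 libraries, as did each neighbouring pair from UHRF1 down to UHRF2. By CPM per kilobase of the longest protein-coding transcript in GENCODE release 29, a scale added after the FPKM values were seen, DNMT1 at 103 was followed by DNMT3B at 36.7, TET1 at 25.4, UHRF1 at 20.4, UHRF2 at 12.7, TET2 at 7.99, TET3 at 6.09 and DNMT3A at 3.71. DNMT1 was first on both scales in all 3 groups, and DNMT3A was last on both scales in line 2, at 3.00 FPKM and 1.76 CPM per kilobase.

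The nearest genes on the chromosome were read beside DNMT1, DNMT3A and UHRF1. Of the 10 tested genes nearest to DNMT1 in gene order, 5 on each side, all 10 had a negative log2 fold change in line 2, with a median of -0.56 (range -1.08 to -0.20), where DNMT1 stood at -0.63 and the median of all tested genes was -0.01. In line 1 the median of the same 10 genes was -0.11. S1PR2, at -0.54 in line 2, is among these 10, and its exons overlap those of DNMT1 on the same strand. The 10 values are therefore not fully separate from that of DNMT1. Overlaps among the 10 neighbours themselves were not examined, so they may not be 10 separate values. Adjusted p-values in line 2 were 0.732 for SNORD105, 0.805 for SNORD105B, 0.858 for AC011511.2 and 0.689 for AC011511.5 (edgeR). The translation initiation factor gene EIF3G, named after its value was seen, was the 1 neighbour called lower in line 2 (-1.08, adjusted p = 0.00566), where 4.48% of all tested genes were called lower. Of the 10 neighbours of DNMT3A, 2 were negative in line 2, the median was 0.09 (range -0.45 to 0.49) and 0 were called, while DNMT3A stood at -1.07. Around UHRF1, on the same chromosome as DNMT1, the median in line 2 was -0.61 with 2 of 10 called lower, the histone demethylase gene KDM4B (-1.01, adjusted p = 0.00312) and the phosphatase gene PTPRS (-4.09, adjusted p = 0.00268), while UHRF1 itself stood at 0.20. Both were named after their values were seen. Copy number of these regions was not measured here.

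**Figure D4:**
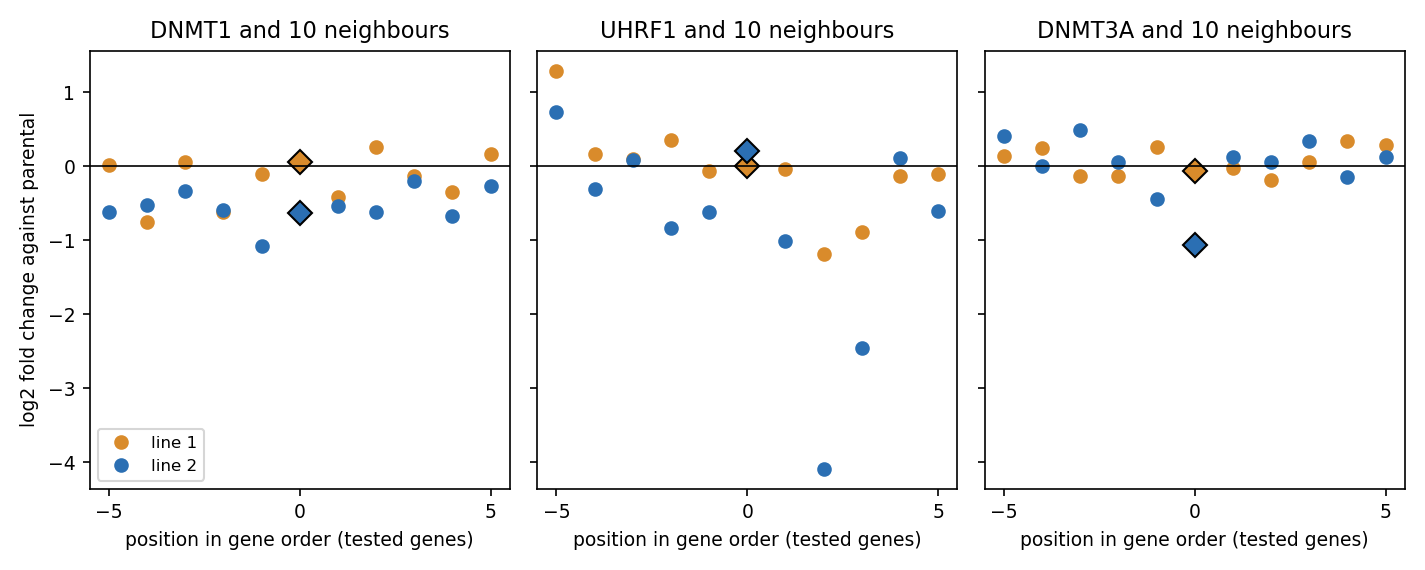
Log2 fold change against parental cells of DNMT1, UHRF1 and DNMT3A (diamonds, position 0) and of the 5 tested genes on either side in gene order (circles), in line 1 (orange) and line 2 (blue). All 10 neighbours of DNMT1 are below 0 in line 2, with a median of -0.56, and those of DNMT3A have a median of 0.09.

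Over the 7 libraries, the log2 CPM of DNMT1 was most alike to EVL, an actin regulator on chromosome 14 (Pearson r = 0.999), CDC37, an HSP90 co-chaperone on chromosome 19 (0.986), and CD320, the transcobalamin receptor on chromosome 19 (0.981), among 10460 genes compared. DNMT3A was most alike to FAM92A1 (0.997) and LY6E (0.990) on chromosome 8 and KRI1 on chromosome 19 (0.992). These are the highest of many values over libraries that share groups and are given as a description. In line 2, log2 fold changes were -0.32 for EVL (adjusted p = 0.217), -0.65 for CDC37 (0.0353) and -0.79 for CD320 (0.0523). They were -1.32 for FAM92A1 (adjusted p = 0.00444), -1.23 for KRI1 (0.0014) and -0.99 for LY6E (0.00666). Since the genes were picked for likeness over libraries that include line 2, these edgeR values are no separate test.

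Among 15 partners of the methylation machinery, 13 were tested. CDCA7L, a zinc finger paralogue of the chromatin remodelling cofactor CDCA7, fell in line 2 from a mean of 13.5 to 2.64 CPM, a log2 fold change of -2.36 (SE 0.24, adjusted p = 0.00109), and was lower there than in line 1 by a log2 difference of -2.29 (SE 0.25, adjusted p = 0.00141). The other 12 passed in no comparison, and the median of the 13 was 0.17 in line 2. DPPA3, which displaces UHRF1 from chromatin in the oocyte and early embryo of the mouse, had 0 counts in every library, and DNMT3L, the germline cofactor of the de novo enzymes, at most 0.0255 CPM. Among readers of methylated CpG, the thymine glycosylase gene MBD4 stood at 96.1, 88.2 and 87.4 CPM in parental cells, line 1 and line 2, and ZBTB33, the gene of the zinc finger protein Kaiso, at 66.8, 53.6 and 50.03 CPM. Neither passed in any comparison by edgeR or DESeq2, and the log2 fold change of ZBTB33 in line 2 was -0.42 (SE 0.13, adjusted p = 0.108).

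Of 10 genes that repair oxidised cytosine after TET action, 0 passed in edgeR in any comparison, with up to 4 at an unadjusted p under 0.05 (line 1). DESeq2 called 2 in line 1, the glycosylases NEIL1 and NEIL3, and 0 in the other comparisons. By the same test 907 of all 18160 genes were called in line 1 and 2032 in line 2. The most abundant of the 10 repair genes were PARP1 (511, 534 and 609 CPM in parental cells, line 1 and line 2) and the endonuclease gene APEX1 (116, 87.2 and 104 CPM). Of 10 genes that supply the methyl donor S-adenosylmethionine or the TET cosubstrate 2-oxoglutarate, 0 passed, with up to 2 at an unadjusted p under 0.05 and 1 call by DESeq2 in each line, IDH2 in line 1 and IDH3A in line 2. AHCY, the hydrolase of S-adenosylhomocysteine, and MTR, methionine synthase, stood at 220 and 215 CPM in parental cells. Of 5 TET partners 4 were tested and 0 passed. The glycosyltransferase gene OGT was at 810 CPM in parental cells and 465 CPM in line 2 (log2 fold change -0.80, SE 0.29, adjusted p = 0.153), the 1 partner with an unadjusted p under 0.05, and HCFC1 was at 334 and 427 CPM. DESeq2 called 0 TET partners.

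Germline genes that promoter methylation keeps silent in somatic cells were near 0 in all groups. Of 10 such genes 2, MAEL and SYCP3, had enough counts to be tested, and 4 had 0 counts in every library. MAEL stood at 0.109, 0.416 and 0.197 CPM and SYCP3 at 0.346, 0.294 and 0.142 CPM in parental cells, line 1 and line 2, and neither passed in any comparison, by edgeR or DESeq2, or at an unadjusted p under 0.05. The 2 libraries of line 1 held the lowest and the highest MAEL value, 0.0247 and 0.808 CPM, so its mean there rests on 1 library. TEX101, not tested, reached 0.852 CPM, the highest value among the 10 genes. The 10 genes summed to 0.281 to 1.55 CPM per library.

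Since DNMT1 and UHRF1 are made mainly in cycling cells, 12 S phase genes were read beside them. Of these 0 passed in edgeR, and up to 3 had an unadjusted p under 0.05 (line 2). DESeq2 called 1, TYMS in line 2, where it called 2032 of all 18160 genes. The 3 genes with an unadjusted p under 0.05 were TYMS and CCNE2, both higher, and CDT1, lower at -0.52 (SE 0.22, adjusted p = 0.204 in edgeR). Of the 12 genes, 11 had positive values in line 1 and 10 in line 2. Their median log2 fold change was 0.18 in line 2 and 0.18 in line 1, and the helicase gene MCM4 stood at 402, 456 and 482 CPM and MCM7 at 390, 429 and 409 CPM in parental cells, line 1 and line 2. PCNA, the clamp that DNMT1 binds at the replication fork, had a log2 fold change of 0.65 (SE 0.22, adjusted p = 0.123) in line 2, where DNMT1 stood at -0.63.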

How the data were processed

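Poly-A RNA of 7 K562 libraries was prepared with a stranded kit, per the labels' protocols. For each gene the authors deposited a raw read count and, in a separate table, FPKM values, in which 114 repeated identifiers were summed. The authors' deposited comparison table also gives per gene a log2 fold change for edited against parental cells, with a standard error and a p-value before and after adjustment. Per the submitters' processing notes reads were handled with tools that include STAR 2.7.3a, Bowtie2 2.5.1, cutadapt 2.5, Cufflinks 2.2.1, HTSeq 0.11.2 and DESeq2, on builds named as hg19 and GRCh37. No strand setting for HTSeq is given in the sources used here, so reads of overlapping genes could be assigned differently.

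Counts of all 57773 genes, none of them a row without a gene, were filtered with filterByExpr for the 2 genotypes (18160 kept), scaled by TMM and tested with edgeR 4.0.16 (glmQLFit and glmQLFTest) in R 4.3.3, with Benjamini-Hochberg adjustment over all tested genes at 0.05. The fit of edited against parental cells had 2 groups, and that of the separate lines 3 groups sharing 1 estimate of the spread. A standard error is the log2 fold change divided by the square root of F. Alternatives were DESeq2 1.42.0 (its size factors and its Wald test), a filter of at least 2 CPM on average or none at all, limma 3.58.1 on log2(FPKM + 1) and log2(FPKM + 0.1) over genes with a mean FPKM of at least 0.1, the former also without that filter, a block for the replicate number, 3 groups in place of 2, and each library left out. Steps were tested on simulated counts. Coordinates and gene order were looked up by identifier (UHRF1 by symbol) in GENCODE release 29, whose build, GRCh38, is newer than the files' build.

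All 8 members were named. Of other genes, each list gave up to 4 that passed or else the 2 most abundant, and each called member the 3 most correlated tested genes with a mean of at least 5 CPM (log2 CPM, prior count 2). The members and the lists were chosen with earlier results of these data known. Some members of the lists are not reported here.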

Additional observations from a re-analysis of the deposited data

Results flagged for a closer look

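2 results were singled out because the edited lines, which carry the same genotype label, differed from each other in a direct test. DNMT1 was lower in line 2 than in line 1 by a log2 difference of -0.68, at means of 360 and 576 CPM, and DNMT3A by -1.01, at 16.8 and 33.8 CPM (adjusted p = 0.0435 and 0.00998 in the quasi-likelihood test of edgeR). Both libraries of line 2 were below both of line 1 for each gene. The 10 tested genes around DNMT1 had a median log2 difference of -0.36 between line 2 and line 1, and those around DNMT3A one of 0.16. No member had a library far enough from the rest of the 4 edited libraries to be singled out.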

How the results depend on the processing

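The values of DNMT1 and DNMT3A in line 2, against parental cells and against line 1, stayed negative under all 15 alternatives each, but the calls did not hold everywhere. Against the 2 members called in line 2 and the 2 called between the lines, DESeq2's size factors called 1 in line 2 (DNMT1 lost, adjusted p = 0.0514), the limma fits on FPKM called 0 in both comparisons, and leaving out 1 library called 0 to 2 in both. In edited against parental cells, a 3-group fit called 1 member, DNMT3A. That fit compares the mean of the 2 lines, -0.06 in line 1 and -1.07 in line 2, with parental cells. The difference between the lines does not count as error there, as it does in the 2-group fit. What sets the lines apart was not tested. No filter added DNMT3B in line 2 (0.54, adjusted p = 0.0259).

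Calls over all genes moved more. For edited against parental cells, 33 genes became 234 with no filter, 464 with DESeq2, 4, 8 and 13 with limma on log2(FPKM + 1), log2(FPKM + 0.1) and unfiltered FPKM, 619 in the 3-group fit, and 2 to 32 with 1 library left out. For line 1 the 318 genes became 1167, 907, 26, 56 and 34, and 44 to 931 with 1 library left out. For line 2 the 1057 genes became 2477, 2032, 179, 309 and 130, and 259 to 1848. Between the lines 1188 became 2158, 1900, 167, 274 and 153, and 327 to 2344.

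Libraries of the 3 groups share replicate numbers, but deviations of same-numbered libraries had correlations from -0.10 to 0.30, so the numbers were not taken as pairs. With the replicate number as a block, 1 member was called in line 1 (TET2, -0.45), 4 in line 2 (DNMT1, DNMT3A, DNMT3B at 0.49 and TET2 at -0.33) and 4 between the lines (DNMT1, DNMT3A, UHRF2 at -0.39 and TET3 at 0.39), and the genes called numbered 7, 2272, 3887 and 3568 in edited cells, line 1, line 2 and between the lines. The block also turned the sign of uncalled values: UHRF1 in edited cells to -0.0022, TET1 to 0.15 in edited cells, 0.03 in line 1 and 0.27 in line 2, and UHRF2 to 0.18 in line 1. Replicate number 3 occurs only among parental libraries, so the block also removed parental 3 from the comparisons. Leaving out parental 3 alone gave TET1 values of 0.17, 0.05 and 0.28 in edited cells, line 1 and line 2. It gave 0.20 for UHRF2 in line 1, and left UHRF1 in edited cells positive, at 0.03. The values and calls under the block are therefore not those of pairing alone.

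Other sign changes were in values that passed no test. In line 1, limma on FPKM gave -0.01 for DNMT1, 0.03 for DNMT3A, 0.05 for UHRF1 and 0.04 to 0.05 for UHRF2, and DESeq2's size factors and Wald test gave 0.0012 for UHRF1. With 1 library left out, values for edited cells ranged from -0.05 to 0.27 for UHRF1, -0.29 to 0.01 for UHRF2 and -0.55 to 0.17 for TET1. In line 1 they ranged from -0.09 to 0.17 for DNMT1, -0.17 to 0.04 for DNMT3A, -0.04 to 0.42 for DNMT3B, -0.26 to 0.21 for UHRF1, -0.11 to 0.20 for UHRF2 and -0.68 to 0.05 for TET1. In line 2 they ranged from -0.13 to 0.47 for UHRF1 and -0.44 to 0.28 for TET1, and between the lines from -0.13 to 0.48 for UHRF1. Where a line was left with 1 library, that library was assumed to vary like the others. With 2 libraries a line, intervals of 2 standard errors in line 2 were wide, from -0.89 to 0.43 for TET1 and from -0.54 to -0.05 for TET2.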
